A study of Homo sapiens with 10 samples.

Results

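The 2 HER2 breast cancer lines SKBR3 and MDA-MB-453 were compared with each other while both were exposed to TWEAK, using the 4 H3K27ac ChIP-seq peak lists of TWEAK-treated cells among the 8 peak lists and 10 samples of the series. Each line had 2 lists of TWEAK-treated cells, chosen by their labels alone, and 2 lists of untreated cells. The untreated lists served as a reference for what each line showed without the ligand. They also entered the choice of genes to test and the estimate of spread. Treated cells were starved in optimem for 8 h and received 10 ng/ml TWEAK for 48 h, with fresh ligand at 24 h, and untreated cells were starved alike without the ligand. A line is a single established culture of one tumour, so a difference between SKBR3 and MDA-MB-453 is a difference between these 2 lines and not between tumour subtypes.

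TWEAK is a cytokine of the TNF superfamily encoded by TNFSF12, and its receptor Fn14, encoded by TNFRSF12A, recruits TRAF adaptors and the cIAP ubiquitin ligases encoded by BIRC2 and BIRC3. Their displacement stabilises the kinase NIK (MAP3K14), which acts through IKKα (CHUK) to process NFKB2 and release RELB dimers, while the IKK complex around IKKβ (IKBKB) and NEMO (IKBKG) releases RELA and REL dimers from IκB inhibitors. NF-κB dimers then activate chemokine, cytokine, adhesion and survival genes together with their own inhibitors. H3K27ac is a histone mark of active promoters and enhancers, and a gene whose surroundings hold more of it is usually, though not always, more active.

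The deposited values are peaks, not reads. The value used for a gene was therefore the length in kb covered by peaks within the gene body and 25 kb on each side, called its acetylated length below. A broad or numerous set of peaks gives a high value, and a locus listed at 0 kb had no peak past the caller's threshold. Differences are given as log2 differences of (kb + 0.5), SKBR3 minus MDA-MB-453, with their standard error and a p-value from limma adjusted over 16021 genes. The fit used all 8 lists in 4 groups of 2. The 0.5 kb added to each value makes the log2 difference of a gene listed at 0 in one line depend on that addition, so no fold is given for such genes.

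SKBR3 lists were longer. They held 45371 and 51687 peaks covering 96.1 and 105.7 Mb, against 37634 and 36835 peaks covering 72.0 and 70.8 Mb in MDA-MB-453 (difference in means 11294.5 peaks, exact two-sided permutation p = 0.33, the smallest that 2 lists against 2 allow). SKBR3 TWEAK replicate 2 was the longest of the 8 lists. Read depth is unknown, so a longer list cannot be told apart from a deeper or better enriched library. The luminal epithelial markers KRT8, KRT18, KRT19 and EPCAM and all 5 genes of the HER2 amplicon had promoter peaks in every TWEAK list. That held for 51.3% of all 19618 promoters. The amplicon loci summed to 301 and 251 kb in SKBR3 and to 104 and 99.9 kb in MDA-MB-453. Of the 6 fibroblast, 8 leukocyte and 5 endothelial marker genes, 3 had a promoter peak in all 4 TWEAK lists and the other 16 had one in no list. CDH1, the E-cadherin gene and one of 8 luminal epithelial markers, went against the rest. Its locus was covered over 31.9 and 32.5 kb in MDA-MB-453 and was listed at 0 in both SKBR3 lists.

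Line differences under TWEAK were widespread. Of 16021 gene loci tested, 6488 (40.5%) had a higher acetylated length in SKBR3 and 3552 (22.2%) in MDA-MB-453, so that 62.7% of all loci were called. Both SKBR3 lists lay above both MDA-MB-453 lists at 50.1% of loci, and the reverse held at 33.2%. This is the background against which counts of inflammatory genes should be read. The median log2 difference of all genes was 0.21. The balance between the lines depended on scaling. Centring each list on its own median gave 5120 loci higher in SKBR3 against 5393 higher in MDA-MB-453, with a median of −0.06. With peak width multiplied by the authors' fold enrichment the counts were 4896 and 5968, and the median was −0.17.

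NF-κB and inflammatory genes leaned towards SKBR3. Across 7 lists with 173 genes, 143 were tested, of which 88 (61.5%) were higher in SKBR3, 18 (12.6%) were higher in MDA-MB-453 and 37 were not called. Their median log2 difference was 0.86. Centring gave 71 against 23 with a median of 0.59, and with the enrichment-weighted length 73 and 27 with a median of 0.72. A gene listed at 0 throughout one line could enter the test only through the other line, so its call follows in part from that. With no filter on low values, 84 of 173 genes (48.6%) were higher in SKBR3 and 17 (9.83%) in MDA-MB-453, with a median of 0.61. The shares over all 19618 genes were then 31.9% and 17.7%. The 143 genes fall in 126 separate loci, since 30 of them share a window with a neighbour in 13 loci, and by locus 74 were higher in SKBR3 throughout and 17 in MDA-MB-453. The remaining 30 genes did not reach 1 kb in at least 2 of the 8 lists and were not tested, among them CXCL1, CXCL10, PTGS2 and CD40, which were listed at 0 in every list (named after their values were seen).

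Endothelial and leukocyte markers moved with them, while fibroblast markers were split. Of 5 endothelial markers 4 were higher in SKBR3 and 0 in MDA-MB-453 (median 2.06), with a summed acetylated length of 34.8 to 39.2 kb against 7.02 to 7.94 kb. Of 7 tested leukocyte markers 5 were higher in SKBR3 and 1 in MDA-MB-453 (median 0.69), with sums of 59.5 to 62.7 kb against 30.0 to 31.6 kb. MS4A1, the CD20 gene of B cells, was listed at 0 in every list. Of 3 tested fibroblast markers 1 was higher in SKBR3 and 2 in MDA-MB-453 (median −0.68). All 6 fibroblast markers together summed to 13.9 to 15.5 kb against 10.9 to 11.2 kb, and LUM, DCN and COL3A1 were listed at 0 in every list. The part of these markers in the lean of the inflammatory genes was not tested.

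**Figure D1:**
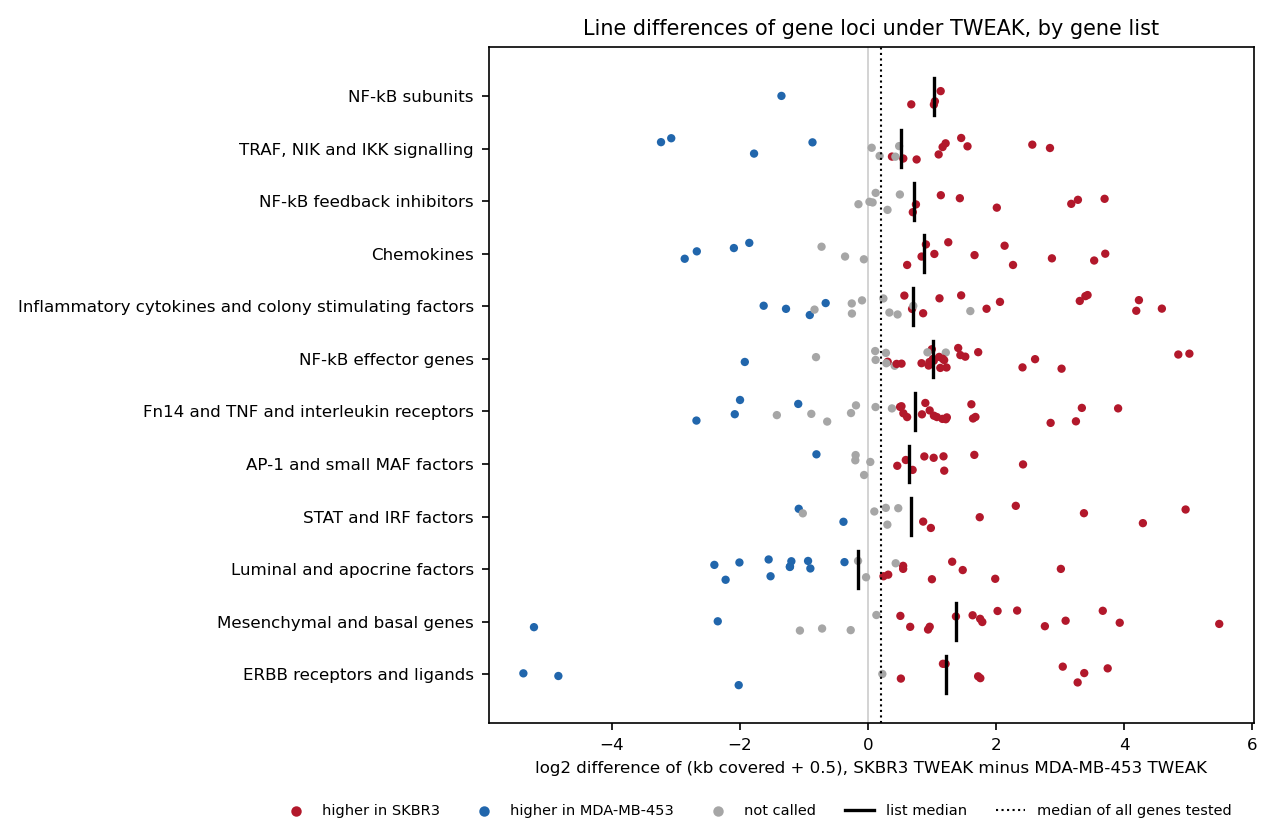
Each point is a tested gene, placed by its log2 difference of (kb covered + 0.5) between SKBR3 TWEAK and MDA-MB-453 TWEAK lists on the x axis and by gene list on the y axis, and coloured by its limma call. Thick bars are list medians and the dotted line is the median of all genes tested (0.21). The medians of all 7 NF-κB and inflammatory lists lie to the right of that line, and the luminal and apocrine list, at −0.15, lies to its left.

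The receptor and ligand came first. TNFRSF12A, the Fn14 gene at chr16:3018445-3022383, was covered over 25.4 and 21.5 kb in SKBR3 and over 11.8 and 11.6 kb in MDA-MB-453. Both SKBR3 lists were above both MDA-MB-453 lists, and the log2 difference was 0.97 ± 0.10 (SE, 2 lists per line, adjusted p = 0.00022). Its promoter held a peak in every list. The window of TNFSF12, the TWEAK gene, was covered over 18.2 and 14.8 kb against 11.1 and 11.8 kb (log2 difference 0.50 ± 0.14, adjusted p = 0.0195), but its own promoter held no peak in any list. That call was lost after centring (0.23, adjusted p = 0.252) and without SKBR3 TWEAK replicate 1 (0.36, adjusted p = 0.0966).

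All 5 NF-κB subunit genes were called, beside 62.7% of all loci, and 4 of them were higher in SKBR3, beside 40.5%. RELB, the transcriptional partner of processed NFKB2, was covered over 7.08 and 7.78 kb in SKBR3 and 3.13 and 3.63 kb in MDA-MB-453 (log2 difference 1.03 ± 0.14, adjusted p = 0.00071). The difference lay outside the gene, since it was 0.13 (adjusted p = 0.494) with 10 kb on each side. NFKB2, the precursor of p52, was covered over 10.6 and 12.8 kb against 7.39 and 6.80 kb (0.68 ± 0.13, adjusted p = 0.00288). RELA (1.05) and REL (1.14), the activating subunits of the canonical pathway, had differences of the same direction. NFKB1 went the other way. This gene of the p105 precursor of p50 was covered over 2.85 and 3.71 kb in SKBR3 and 9.38 and 8.74 kb in MDA-MB-453 (−1.35 ± 0.20, adjusted p = 0.000913). For none of the 5 did the 2 lines overlap. That is common, since both SKBR3 lists were above at 50.1% of all loci and both MDA-MB-453 lists at 33.2%.

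Signalling genes between the receptor and NF-κB went both ways. Of 18 TRAF, NIK and IKK genes, 10 were higher in SKBR3, 4 in MDA-MB-453 and 4 were not called. On the SKBR3 side were TAB2, TRAF2, BIRC3, MAP3K14, BIRC2, TRAF3, IKBKG, TRAF4 and the IKK-related kinases IKBKE (1.11) and TBK1 (0.76). TRAF1, TRAF6, TAB3 and MAP3K7 were not called. TRAF2, the adaptor that carries the cIAPs, was covered over 76.3 and 63.7 kb in SKBR3 and 11.2 and 11.5 kb in MDA-MB-453 (2.57 ± 0.21, adjusted p = 5.56e-05). TAB2, an adaptor of the kinase TAK1, was covered over 9.59 and 12.5 kb against 1.04 and 1.15 kb (2.84 ± 0.16, adjusted p = 1.22e-05). MAP3K14, which encodes NIK, was covered over 33.9 and 32.8 kb against 11.5 and 12.2 kb (1.46 ± 0.12, adjusted p = 6.31e-05).

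IKBKB, CHUK, TRAF5 and RIPK1 were higher in MDA-MB-453. IKBKB, at chr8:42271302-42332460, was covered over 3.69 and 2.59 kb in SKBR3 and 32.8 and 33.6 kb in MDA-MB-453 (−3.23 ± 0.17, adjusted p = 1.07e-05). In MDA-MB-453 TWEAK replicate 1 peaks ran over the first 11.2 kb of the gene and again over most of the stretch between 14.6 and 28.3 kb, where SKBR3 had a single short peak. CHUK was covered over 1.94 and 2.06 kb against 8.25 and 7.86 kb (−1.77 ± 0.12, adjusted p = 2.37e-05). TRAF5, a TRAF adaptor of several TNF receptors, was covered over 0.722 and 0.686 kb against 9.74 and 9.45 kb (−3.07 ± 0.12, adjusted p = 5.08e-06) and was the only gene of this list whose promoter held a peak in one line only, MDA-MB-453. RIPK1, a kinase of the TNF receptor complex, was also higher in MDA-MB-453 (−0.86 ± 0.13, adjusted p = 0.00118). The third IKK component, IKBKG, was higher in SKBR3 (0.55).

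BIRC3 and TRAF4 were the signalling genes called under the ligand and not in untreated cells. BIRC3 was covered over 10.6 and 14.3 kb in SKBR3 with TWEAK and 3.68 and 4.05 kb in MDA-MB-453 with TWEAK (1.56 ± 0.16, adjusted p = 0.000155), whereas the untreated lists had 4.59 and 4.36 kb in SKBR3 and 3.36 and 3.31 kb in MDA-MB-453. Counted from the gene's start, the promoter peak ran from −5.06 to 1.11 kb and from −5.31 to 1.498 kb in the treated SKBR3 lists, and from −0.664 to 0.833 kb and from −0.725 to 1.15 kb in the treated MDA-MB-453 lists. BIRC2, its neighbour, shares part of the window and was covered over 5.38 and 6.07 kb against 2.18 and 2.18 kb (1.22 ± 0.14, adjusted p = 0.000255). That difference was 0.67 (adjusted p = 0.129) with peaks of q under 1e-05 and 0.19 (adjusted p = 0.432) with the enrichment-weighted length.

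**Figure D2:**
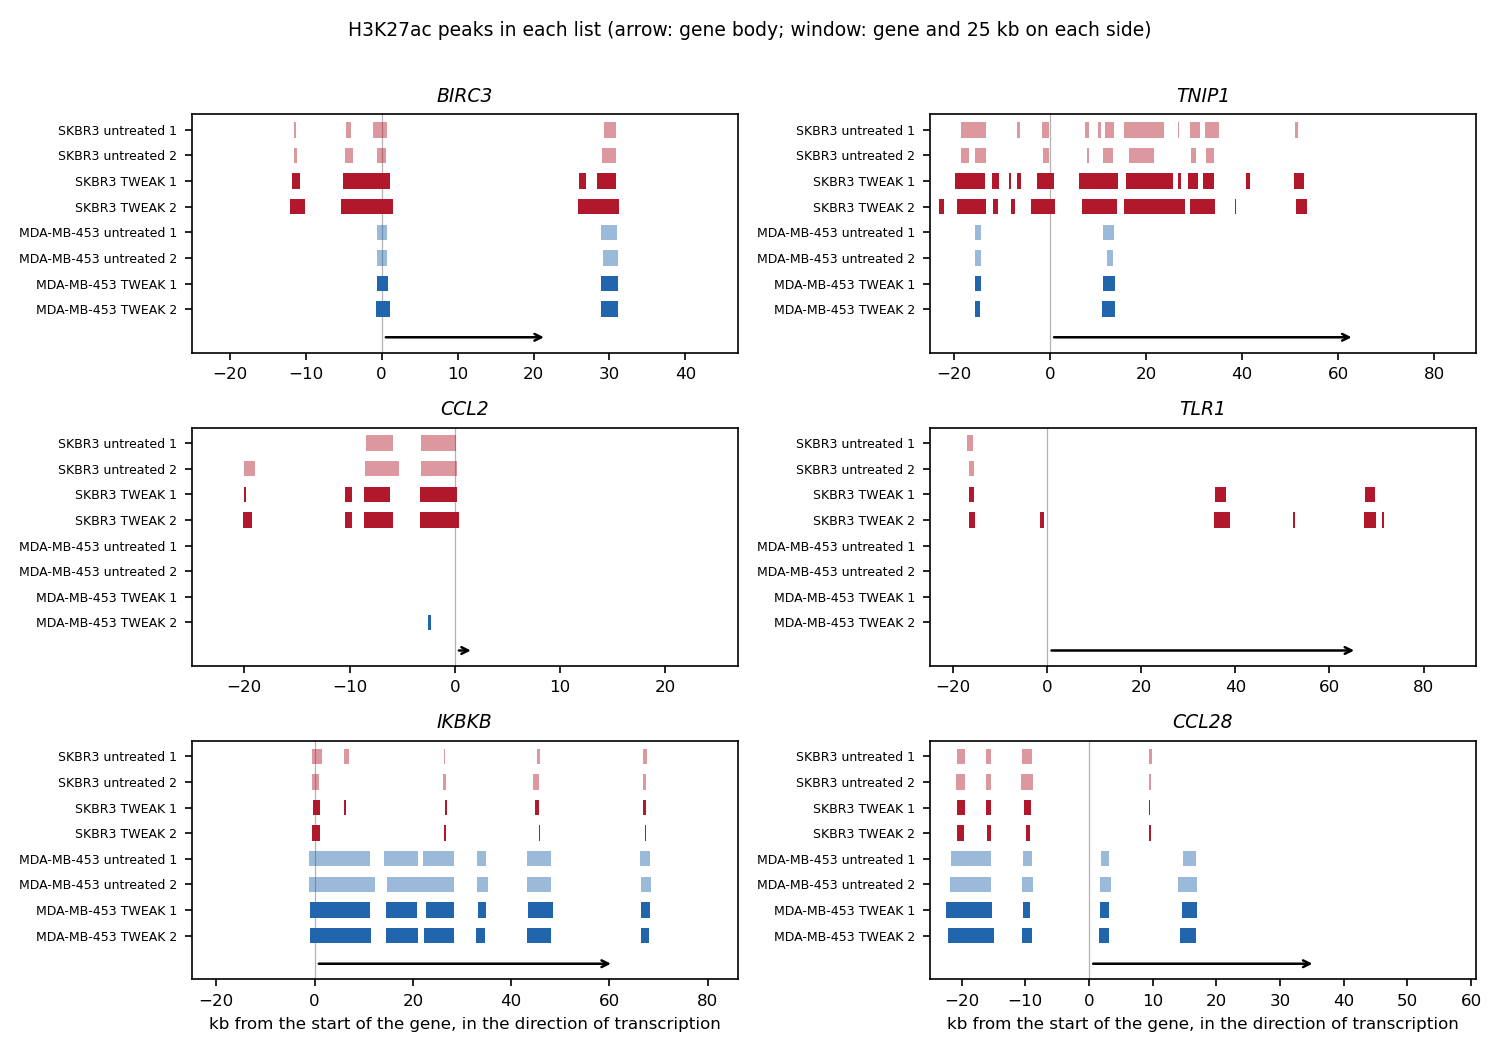
H3K27ac peaks of each of the 8 lists (rows) are drawn against the distance in kb from the start of the gene on the x axis, for BIRC3, TNIP1, CCL2, TLR1, IKBKB and CCL28, with SKBR3 in red, MDA-MB-453 in blue, untreated lists pale and an arrow for the gene body. The TLR1 window has no peak in any MDA-MB-453 list. The first 28.3 kb of IKBKB are mostly covered in MDA-MB-453, and its gene body is mostly bare in SKBR3.

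Feedback inhibitors, which NF-κB itself activates, were higher in SKBR3 or not called. Of 14 tested, 8 were higher in SKBR3, 0 in MDA-MB-453 and 6 were not called (under centring 7 and 1). TNIP1, which binds the deubiquitinase A20, was covered over 38.2 and 42.1 kb in SKBR3 and 3.68 and 3.68 kb in MDA-MB-453 (3.28 ± 0.22, adjusted p = 2.36e-05). Its relative TNIP2 was covered over 10.4 and 12.5 kb against 0.831 and 0.809 kb (3.18 ± 0.19, adjusted p = 1.76e-05), and TRAFD1 over 46.0 and 43.4 kb against 3.64 and 2.44 kb (3.70 ± 0.21, adjusted p = 1.34e-05). TNFAIP3, which encodes A20, was covered over 5.85 and 6.49 kb against 1.14 and 1.16 kb (2.01 ± 0.22, adjusted p = 0.000207). With peaks of q under 1e-05 the TNFAIP3 difference was 1.88 and was not called (adjusted p = 0.0711). BCL3 (1.44), an atypical IκB that binds p50 and p52 dimers, and NFKBIA (1.14), which encodes IκBα, were also higher in SKBR3. The promoters of 13 of the 14 genes, counted at any annotated start site, held a peak in all 4 lists, beside 51.3% of all promoters. At TNIP1 the treated MDA-MB-453 peaks lay between 10.8 and 13.5 kb and between −15.5 and −14.3 kb from the gene's start, with none at that start.

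Chemokine loci were called in both directions. Of 31 genes, 18 were tested, 11 were higher in SKBR3 and 4 in MDA-MB-453. CCL2, the monocyte attractant, was covered over 6.89 and 7.99 kb in SKBR3 and over 0 and 0.236 kb in MDA-MB-453. Its neighbour CCL7, which shares most of that window, had 6.30 and 6.76 kb against 0 and 0.236 kb. CXCL13, a B cell attractant, was covered over 3.02 and 3.32 kb in SKBR3, and CXCL11, an interferon-induced T cell attractant, over 2.03 and 1.79 kb. Both were listed at 0 in MDA-MB-453, and the CXCL13 call was lost with peaks of q under 1e-05 (0.96, adjusted p = 0.346). CXCL2, a neutrophil attractant, was covered over 10.1 and 10.97 kb against 2.85 and 1.39 kb (2.14 ± 0.25, adjusted p = 0.000323).

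The MDA-MB-453 chemokines were CCL3, CCL4, CXCL6 and CCL28. CCL28, a mucosal chemokine made by epithelial cells, was covered over 3.41 and 2.72 kb in SKBR3 and 11.95 and 12.6 kb in MDA-MB-453 (−1.85 ± 0.14, adjusted p = 4.06e-05). CXCL6 was covered over 2.64 and 2.72 kb in MDA-MB-453 and was listed at 0 in both SKBR3 lists. CCL3 and CCL4 share peaks, at 2.83 and 3.44 kb in MDA-MB-453, and SKBR3 had 0 kb at CCL3 in both lists and 0 and 0.949 kb at CCL4. The CCL3 and CCL4 calls were lost with 50 kb on each side (−0.40 for both, adjusted p = 0.38). Only 3 of the 31 chemokine promoters held a peak in all 4 lists, and 23 held none in any list.

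Among 30 cytokines and colony stimulating factors, 26 were tested, 13 were higher in SKBR3 and 4 in MDA-MB-453. IL12A, a subunit of interleukin-12, was covered over 10.8 and 12.4 kb in SKBR3 and was listed at 0 in MDA-MB-453. CSF1, the macrophage growth factor, was covered over 9.93 and 7.96 kb and was likewise listed at 0. LIF, a cytokine of the interleukin-6 family, was covered over 12.7 and 11.7 kb against 0.464 and 0 kb. The adjacent genes TNF and LTB, both ligands of the TNF superfamily, were covered over 4.94 and 4.84 kb and over 4.69 and 4.84 kb in SKBR3 and were listed at 0 in MDA-MB-453. Of the 30 promoters 18 held no peak in any TWEAK list, those of CSF1, LIF and LTB among them. The IL12A and TNF promoters held one in SKBR3 only.

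CSF3, the granulocyte colony stimulating factor, led the MDA-MB-453 side of the cytokines with 1.88 and 1.93 kb in SKBR3 and 7.11 and 6.75 kb in MDA-MB-453 (−1.62 ± 0.15, adjusted p = 1e-04). IL1A (−1.28), TSLP (−0.66) and IL16 (−0.91) were higher there as well. The promoters of CSF3, IL1A and TSLP held no peak in any list, and the IL16 promoter held one in the SKBR3 TWEAK lists only. The IL16 lists of SKBR3 stood far apart, at 3.10 and 6.49 kb, and its call was lost when either MDA-MB-453 TWEAK list was left out (adjusted p = 0.108 and 0.106) and in the fit of the 4 TWEAK lists alone (adjusted p = 0.0818). With peaks of q under 1e-05 the IL1A difference was −1.18 and was not called (adjusted p = 0.117). IL6 (0.71, adjusted p = 0.148) and CXCL8 (−0.72, adjusted p = 0.342), 2 commonly measured NF-κB targets named after their values were seen, were not called, although their promoters held peaks in one line only, IL6 in SKBR3 and CXCL8 in MDA-MB-453.

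Effector genes were largely on the SKBR3 side, with 23 of 32 tested genes higher in SKBR3, 1 in MDA-MB-453 and 8 not called. F3, which encodes tissue factor, was covered over 12.1 and 20.4 kb in SKBR3 and was listed at 0 in MDA-MB-453. PTGES, the terminal enzyme of prostaglandin E2 synthesis, was covered over 16.3 and 11.9 kb and was listed at 0 there too. TNFAIP2 was covered over 32.3 and 31.5 kb against 5.80 and 5.36 kb (2.42 ± 0.19, adjusted p = 4.45e-05). SELE, an adhesion molecule of endothelial cells, had 6.49 and 6.43 kb in SKBR3 and 0 and 0.964 kb in MDA-MB-453, with no promoter peak in any list. ICAM2 was the exception, with 1.42 and 1.37 kb in MDA-MB-453 and none in SKBR3, and its call was lost with 50 kb on each side (−0.34, adjusted p = 0.0899). NAMPT, the rate-limiting enzyme of NAD salvage, was covered over 2.81 and 3.43 kb against 2.45 and 2.48 kb (0.28 ± 0.22, adjusted p = 0.294). It was called only with 50 kb on each side (0.50, adjusted p = 0.0306).

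Receptors of the TNF, interleukin and Toll-like families were mostly higher in SKBR3, with 19 of 30 tested genes against 4 in MDA-MB-453. TLR1 and TLR6, neighbouring receptors for bacterial lipopeptides, were covered over 5.52 and 8.85 kb and over 3.48 and 5.95 kb in SKBR3 and were listed at 0 in every MDA-MB-453 list. LTBR, a receptor that feeds the noncanonical pathway, was covered over 25.7 and 23.2 kb against 3.16 and 2.75 kb (2.85 ± 0.17, adjusted p = 1.68e-05). TNFRSF25 (3.25 ± 0.16, adjusted p = 9.56e-06) and the adaptor gene MYD88 (1.68 ± 0.08, adjusted p = 9.56e-06) were higher in SKBR3 too. On the MDA-MB-453 side, IL1R1, the interleukin-1 receptor, was covered over 15.1 and 24.4 kb in SKBR3 and 40.8 and 41.98 kb in MDA-MB-453 (−1.09 ± 0.22, adjusted p = 0.00394). OSMR and TNFRSF19 were listed at 0 in SKBR3 and covered over 2.58 and 2.81 kb and over 1.55 and 1.43 kb in MDA-MB-453. TLR2 had 0 and 1.43 kb against 3.95 and 3.35 kb, and its call was lost without either MDA-MB-453 TWEAK list (adjusted p = 0.0763 and 0.0575).

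**Figure D3:**
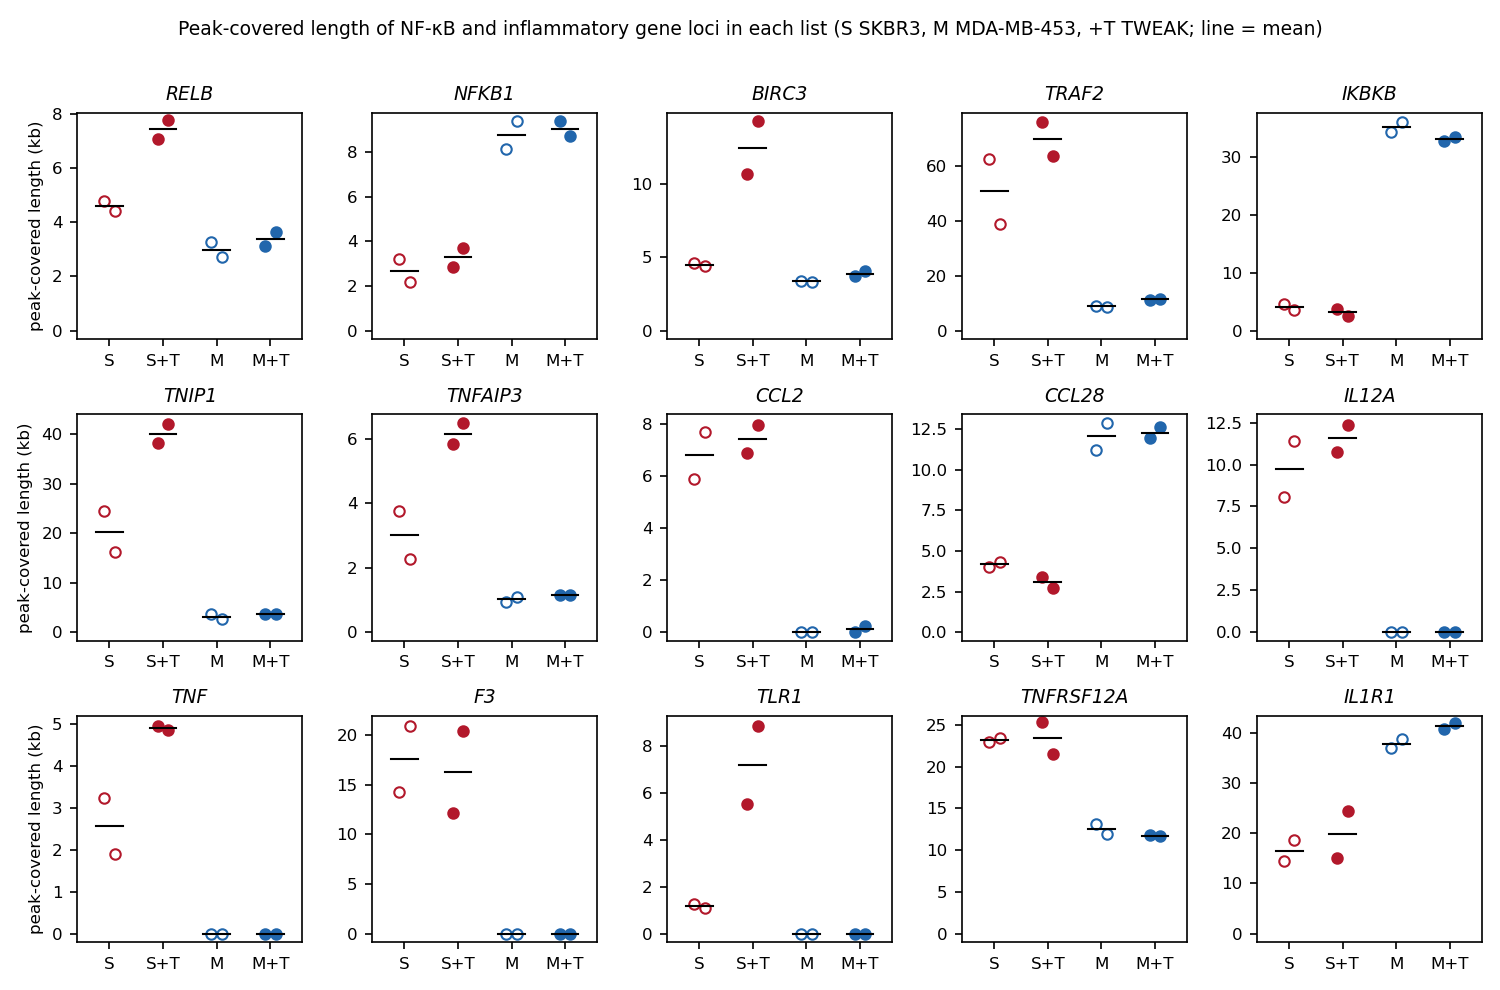
Peak-covered length in kb (y axis) of 15 gene loci is drawn for each list, with SKBR3 in red, MDA-MB-453 in blue, untreated lists as open and TWEAK lists as filled circles, and the mean of 2 lists as a line. BIRC3, RELB, TRAF2, TNIP1, TNFAIP3, TNF and TLR1 have both SKBR3 TWEAK lists above both untreated SKBR3 lists. The share of all loci that do so was not counted. None of these genes was called when the change of the line difference with the ligand was tested. NFKB1, IKBKB, CCL28 and IL1R1 are higher in MDA-MB-453 with and without the ligand.

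Most of these differences were there without TWEAK. Untreated SKBR3 against untreated MDA-MB-453 gave 39.5% of loci higher in SKBR3 and 23.1% higher in MDA-MB-453. Of the 106 NF-κB and inflammatory genes called under TWEAK, 92 were called in the same direction in untreated cells, 13 were not called there and 1, ICAM4, was called in the opposite direction. Over all genes the counts were 8669, 1340 and 31 of 10040. The list median of the 143 genes was 0.61 in untreated cells and 0.86 under TWEAK, against 0.17 and 0.21 for all genes.

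The 13 genes called under TWEAK and not in untreated cells were BIRC3, BCL2A1, CFLAR, XIAP, TRAF4, CD44, ICAM1, MMP13, CCL5, IL23A, TNFSF12, TNFRSF1B and TNFRSF11A, and all were higher in SKBR3. BIRC3, BCL2A1, CFLAR and XIAP encode inhibitors of cell death, and ICAM1 and CD44 are adhesion molecules. A call under TWEAK beside none without it does not show that the line difference changed, and the interaction of line and ligand was tested for that. BCL2A1 was covered over 4.25 and 5.86 kb in treated SKBR3 and 1.66 and 1.22 kb in untreated SKBR3, against 1.82 and 1.87 kb and 1.78 and 1.89 kb in MDA-MB-453 (interaction 1.51 ± 0.27, adjusted p = 0.163). The interaction was 1.18 ± 0.22 for BIRC3 (adjusted p = 0.169) and 1.02 ± 0.32 for CFLAR (adjusted p = 0.419).

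By limma 0 of the 143 genes were called in the interaction, and 11 of all 16021 (0.0687%) were. With a replicate block, with 2 kb added, or without any single list other than the SKBR3 TWEAK lists, the count over all genes was 0. At an unadjusted p under 0.05 the counts were 25 of 143 (17.5%) and 1405 of 16021 (8.77%), of which 24 and 894 were positive, that is, the difference moved towards SKBR3 under TWEAK. The lowest adjusted p belonged to ICAM4 (0.0523), followed by TRAF1 (0.0643) and TLR1 (0.0752), all named after their values were seen. ICAM4, an ICAM1 neighbour, was covered over 3.70 and 6.85 kb in treated SKBR3 and 0 kb in both untreated SKBR3 lists, against 2.04 and 2.04 kb in treated and 1.27 and 1.77 kb in untreated MDA-MB-453. TRAF1, an NF-κB target that binds TRAF2, was covered over 4.90 and 5.17 kb in treated SKBR3 and 4.23 and 4.52 kb in treated MDA-MB-453 (0.18, adjusted p = 0.342), while untreated SKBR3 had 1.15 and 1.66 kb and untreated MDA-MB-453 4.92 and 5.08 kb. The number of inflammatory genes called in the interaction lay between 0 and 6 under the alternatives that kept all lists, and reached 11 without SKBR3 TWEAK replicate 1.

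Regions were then counted, which does not require a gene model. The 4 TWEAK lists merged into 69470 regions, of which 16866 (24.3%) were SKBR3-only (shared by its pair of lists and absent from the other pair), 10134 (14.6%) were MDA-MB-453-only by the same rule, and 19613 (28.2%) were in all 4. Promoters within 1 kb of a transcription start site made up 8.05% of SKBR3-only regions and 10.8% of MDA-MB-453-only regions, against 47.1% of regions in all lists. The median distance to a start site was 24.1 kb and 46.2 kb for the line-only regions and 5.45 kb for the shared ones. By gene, 746 promoters of 19618 (3.8%) held a peak only in SKBR3, 911 (4.64%) only in MDA-MB-453 while 10061 (51.3%) held one in all lists and 6915 (35.2%) in none. Among the 173 inflammatory genes these counts were 15, 7, 70 and 72. Without SKBR3 TWEAK replicate 1 the number of SKBR3-only regions was 27278. With lists cut to one size the order turned, with 11144 SKBR3-only and 11749 MDA-MB-453-only regions.

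Without the ligand the line-only regions of SKBR3 were less complete than those of MDA-MB-453. Of the 16866 SKBR3-only regions, 11781 were in both untreated SKBR3 lists, 2652 in one and 2433 in neither. Of the 10134 MDA-MB-453-only regions, 8881 were in both untreated MDA-MB-453 lists and 315 in neither. SKBR3 lists also agreed less with each other. The share of covered bases common to 2 lists was 0.678 for the untreated and 0.676 for the TWEAK pair. In MDA-MB-453 it was 0.801 and 0.799. The part of this agreement in the counts was not tested. The windows of all 173 inflammatory genes, tested or not, held 668 regions, of which 179 (26.8%) were SKBR3-only and 51 (7.63%) MDA-MB-453-only. Of these 179 regions, 28 (15.6%) were in neither untreated SKBR3 list, close to the 14.4% among all SKBR3-only regions.

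NF-κB and AP-1 motifs were counted within 1000 bp around each region's midpoint, the former by the κB consensus and the latter as TGACTCA or its reverse complement TGAGTCA. Both strands were searched for each motif, and any overlap between the motifs was kept. Of all 69470 regions 14.2% held a κB match and 23.9% an AP-1 match. SKBR3-only regions had 16.9% (95% Wilson interval 16.4% to 17.5%) and 30.0%, and MDA-MB-453-only regions 8.92% (8.38% to 9.49%) and 19.8%. Within the SKBR3-only regions the κB share was 14.1% among those in both untreated SKBR3 lists and 31.3% (29.5% to 33.2%) among those in neither. The corresponding AP-1 shares were 27.8% and 37.0%. In MDA-MB-453 the κB shares were 8.79% and 11.7% (8.64% to 15.8%). Intervals cover counting error only, regions of one library are not replicates, and a match is a run of letters and not a bound site.

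**Figure D4:**
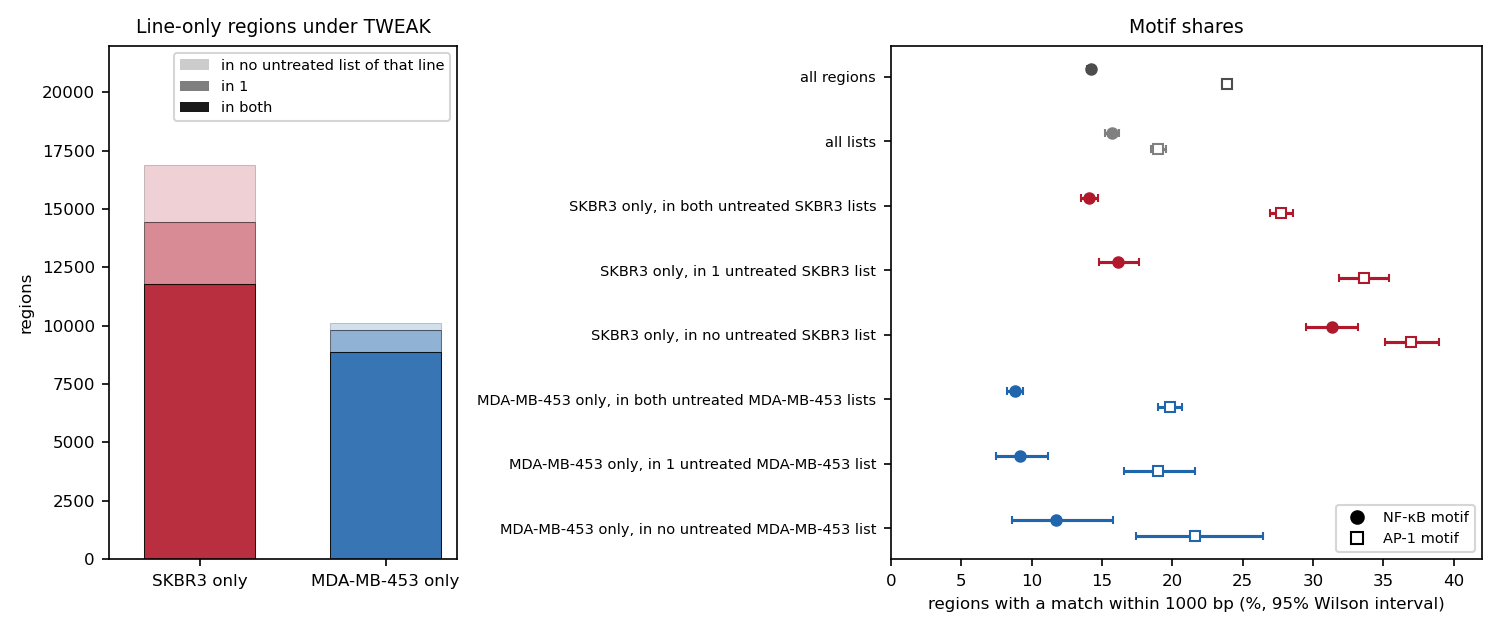
The left panel stacks the number of line-only regions under TWEAK (y axis) by how many untreated lists of the same line held them, and the right panel gives the percentage of regions with an NF-κB (circles) or AP-1 (squares) match with 95% Wilson intervals. SKBR3-only regions in no untreated SKBR3 list have the highest κB share (31.3%), and MDA-MB-453-only regions lie between 8.79% and 11.7%.

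Among regions in the windows of called inflammatory genes, those with the highest rank within their own lists were inspected. The SKBR3-only region of highest rank was at TNIP1, chr5:151092453-151097478, at a mean percentile of 96.9 in the SKBR3 TWEAK lists, over the start of the gene. It ranked at 68.4 and 54.2 in the untreated SKBR3 lists. The next were 8.55 kb from the PTGES start site (chr9:129759094-129764099, mean percentile 93.1), in an intron of IL1RAP (chr3:190585472-190587564, 92.4), in an intron of SOD2 (chr6:159714922-159717761, 92.4) and near TNFRSF14 (chr1:2577547-2580453, 92.2). On the MDA-MB-453 side the region of highest rank lay in an intron of IKBKB (97.8), followed by the TRAF5 promoter (chr1:211326442-211333075, 96.6). The next lay in an intron of CCL28, 0.496 kb from an annotated start site within the gene (chr5:43395476-43398060, 91.8). A further one lay in the IL1R1 window at the IL1RL2 promoter (chr2:102186315-102188939, 84.3). These 4 were in both untreated MDA-MB-453 lists at percentiles of 80.3 or above.

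The κB matches in the line-only regions are shown with 120 bases around them, from the plus strand of hg38, with each match in capitals. Those in the SKBR3-only regions at TNIP1, PTGES, SOD2 and TNFRSF14 are given. The matches shown at PTGES and SOD2 lay in the central 1000 bp counted in the shares, and those at TNIP1 and TNFRSF14 did not.
TNIP1, chr5:151094182-151094301: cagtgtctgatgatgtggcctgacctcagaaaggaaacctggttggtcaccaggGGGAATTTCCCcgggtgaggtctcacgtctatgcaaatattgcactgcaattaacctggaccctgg
PTGES, chr9:129761601-129761720: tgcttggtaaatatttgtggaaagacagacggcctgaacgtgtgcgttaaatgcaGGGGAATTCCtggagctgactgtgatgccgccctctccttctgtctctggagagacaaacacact
SOD2, chr6:159716261-159716380: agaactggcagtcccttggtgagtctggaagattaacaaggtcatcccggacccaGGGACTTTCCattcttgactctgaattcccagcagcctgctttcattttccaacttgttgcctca
TNFRSF14, chr1:2577621-2577740: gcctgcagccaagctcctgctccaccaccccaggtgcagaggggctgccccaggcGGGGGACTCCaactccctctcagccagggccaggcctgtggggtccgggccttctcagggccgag

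The TNIP1 stretch holds 2 overlapping matches, and its region holds 3 in all.

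In the windows of the inflammatory genes called under TWEAK, 25 regions were in both SKBR3 TWEAK lists and in none of the other 6 lists. They lay in the windows of TLR1 and TLR6, ICAM1 and ICAM4, BCL2A1, CFLAR, CXCL13 and IL34 among others. Those in the windows of RELB, TNIP1 and BCL3 had the start sites of CLPTM1, ANXA6 and CBLC as their nearest. The highest ranked, in an intron in the windows of TLR1 and TLR6 (chr4:38817991-38821303), had a mean percentile of 85.9 and no κB match in its central 1000 bp. The second, at chr4:38786876-38789510, had a mean percentile of 77.7, at 64.5 in replicate 1 and 90.8 in replicate 2. Over the windows of all 173 genes, 28 SKBR3-only regions were in neither untreated SKBR3 list. In 12 (42.9%) of these 28 the central 1000 bp held a κB match, beside 31.3% of all 2433 such regions. The matches at TLR1, ICAM1 and ICAM4, BCL2A1 and CXCL13 are shown because their regions were in the SKBR3 TWEAK lists alone. They were chosen after their values were seen.
TLR1, chr4:38788419-38788538: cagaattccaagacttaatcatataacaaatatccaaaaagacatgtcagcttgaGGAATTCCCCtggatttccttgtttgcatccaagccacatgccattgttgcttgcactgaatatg
ICAM1 and ICAM4, chr19:10265429-10265548: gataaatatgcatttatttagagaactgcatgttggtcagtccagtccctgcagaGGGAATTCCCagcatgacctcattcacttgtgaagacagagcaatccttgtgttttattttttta
BCL2A1, chr15:79966043-79966162: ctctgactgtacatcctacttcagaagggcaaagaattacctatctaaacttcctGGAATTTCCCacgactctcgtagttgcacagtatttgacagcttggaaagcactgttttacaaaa
CXCL13, chr4:77493602-77493721: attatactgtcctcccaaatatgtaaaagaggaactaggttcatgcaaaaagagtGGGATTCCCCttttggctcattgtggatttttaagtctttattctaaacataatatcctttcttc

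The ICAM1 and ICAM4 region lies 5.68 kb from the ICAM1 start site outside protein-coding genes, the BCL2A1 region 4.87 kb from its start site in an intron, and the CXCL13 region 17.8 kb from its start site.

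Promoters marked in one line only were read in the same way from RefSeq (hg38), as the 250 bases before the start site. Of 15278 promoters 6.37% held a κB match, counted over the table's window of 250 bases before and 50 after the start. The share was 7.45% of 537 SKBR3-only promoters, 5.68% of 704 MDA-MB-453-only promoters and 25% of the 132 inflammatory genes with an entry. IL12A and IL23A, subunits of interleukin-12 and interleukin-23, are shown as SKBR3-only promoters with a match. Their promoter windows overlapped a peak in both SKBR3 TWEAK lists and in no MDA-MB-453 list, with IL12A also marked in both untreated SKBR3 lists and IL23A in one.
IL12A, chr3:159988585-159988834, plus strand: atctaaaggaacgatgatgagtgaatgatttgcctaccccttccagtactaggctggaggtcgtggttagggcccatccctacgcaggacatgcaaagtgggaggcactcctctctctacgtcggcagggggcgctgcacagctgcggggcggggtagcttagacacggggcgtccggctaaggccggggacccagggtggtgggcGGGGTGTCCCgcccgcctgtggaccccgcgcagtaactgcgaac
IL23A, chr12:56338634-56338883, plus strand: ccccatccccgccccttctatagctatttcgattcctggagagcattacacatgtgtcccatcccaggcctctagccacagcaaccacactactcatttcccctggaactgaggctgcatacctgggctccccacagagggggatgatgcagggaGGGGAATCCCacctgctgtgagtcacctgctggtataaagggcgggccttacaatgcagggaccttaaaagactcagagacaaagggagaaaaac

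The 5 largest differences in each direction among all genes lay outside the inflammatory lists. In SKBR3 they were FBLN2 (an extracellular matrix gene), SEMA7A (a semaphorin), SLC2A12 (a glucose transporter), PPP1R14C (a phosphatase inhibitor) and PROSER2, with acetylated lengths between 22.1 and 54.0 kb in SKBR3 and between 0 and 0.836 kb in MDA-MB-453. In MDA-MB-453 they were SETBP1, CDH1, SIPA1L2, ANKRD30A and PTPRT, with 26.5 to 56.5 kb there and 0 to 0.591 kb in SKBR3. Of these 10 genes, 9 had a promoter peak in one line only, and PTPRT had none in any list. ERBB2, the HER2 gene, was covered over 83.9 and 73.8 kb in SKBR3 and 34.2 and 33.0 kb in MDA-MB-453 (1.21 ± 0.08, adjusted p = 2.75e-05), and all 5 HER2 amplicon genes were higher in SKBR3. With the enrichment-weighted length the ERBB2 difference was 0.22 (adjusted p = 0.367). Copy number was not measured here, and its part in these lengths was not tested. MAFG, a small MAF transcription factor, was covered over 23.5 and 18.7 kb against 9.27 and 8.54 kb (1.19 ± 0.19, adjusted p = 0.00135), and the difference was 0.53 (adjusted p = 0.121) with 10 kb on each side.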

How the data were processed

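H3K27ac ChIP-seq of SKBR3 and MDA-MB-453 cells was deposited as 1 peak list per library. Per the labels and the study's methods, the authors mapped reads with Bowtie2 to hg38, called peaks with MACS2 against input, and removed blacklisted regions with bedtools; versions and calling options are not given in the sources used here. Each deposited list gives positions, a whole-number score, a fold enrichment ratio, and −log10 p-values and −log10 q-values, which the authors' caller made. Reads were not used, so depth is unknown and the study's DiffBind comparison was not run. A larger or better enriched library lists more peaks. Score, ratio and q served only for ranks, a stricter threshold and an enrichment-weighted length. The 2 input samples were not analysed here.

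Chromosomes 1 to 22 and X were used with GENCODE release 44. The length covered by peaks within each of 19618 protein-coding genes and 25 kb on each side was computed as log2(kb + 0.5). Genes with 1 kb or more in at least 2 lists were tested with limma 3.58.1 (trend, 4 group means, all 8 lists, Benjamini-Hochberg) in R 4.3.3, and called at an adjusted p of 0.05. The fit was tested on simulated data. Each group has 2 replicates, described by the study as biological. The p-values thus rest on the spread between 2 libraries within a group, pooled over the 4 groups and moderated across genes. Overlapping peaks (1 bp or more) of the 4 TWEAK lists were joined into regions. Percentiles rank peaks by −log10 q within a list.

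Gene lists, members, named genes and regions were chosen with earlier results of these data known. Named were up to 5 called genes per direction with the largest difference in each inflammatory list, 7 genes the study turns on, the 5 largest differences per direction among all genes, and the 5 highest ranked line-only regions per line in windows of called inflammatory genes. Alternatives were windows of 10 and 50 kb, q under 1e-05, lists of equal size (36148 peaks), pseudocounts of 0.1 and 2 kb, no filter, enrichment weighting, centring, the 4 TWEAK lists alone, a replicate block, other overlap, promoter and motif widths, and leaving out each list. Some items that the rule names are not reported here.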

Additional observations from a re-analysis of the deposited data

Results flagged for a closer look

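By the interaction test in limma, 11 genes of 16021 were called for a line difference that was not the same under TWEAK and in untreated cells (adjusted p = 0.0403 for each). With a replicate block, with 2 kb added, or without any one of the untreated or MDA-MB-453 lists, no gene was called. All 11 had 0 kb in both untreated SKBR3 lists, so the size of each value depends on the 0.5 kb added before the log. Equal values of 0 also add nothing to the estimate of spread. The interaction was 2.03 for CTSS, 2.88 for NPY4R, 2.15 for ADRA2A, 3.05 for C12orf42, 2.09 for KBTBD13, 3.33 for PPM1E, 2.11 for SRD5A2, 2.04 for GPR55, 2.06 for TRIML2, 2.53 for TAGAP and 2.30 for ADAMDEC1. At 7 of them, CTSS, NPY4R, KBTBD13, GPR55, TRIML2, TAGAP and ADAMDEC1, no MDA-MB-453 list had a peak. These 7 passed the filter of 1 kb in at least 2 lists only through the treated SKBR3 lists. Their calls therefore follow in part from how they were admitted to the test. The treated SKBR3 lists had 1.47 and 1.62 kb at CTSS, which encodes the protease cathepsin S, and 2.03 and 2.79 kb at TAGAP. At SRD5A2, which encodes a steroid 5-alpha reductase, treated SKBR3 had 1.69 and 1.52 kb while MDA-MB-453 had between 13.3 and 14.1 kb in all 4 lists. At ADRA2A treated SKBR3 reached 1.83 and 1.92 kb, beside 1.98 and 1.93 kb in treated MDA-MB-453.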

How the results depend on the processing

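The peak lists carry no reads, so depth limits what can be said of loci listed at 0, and no named gene changed direction under any alternative. The balance over all genes did: it was 6488 higher in SKBR3 against 3552, and turned to 4896 against 5968 with enrichment weighting and 5120 against 5393 after centring. Of 1267 alternative values for 67 named genes, 1235 kept direction and call, 31 kept direction and lost the call, and 1, NAMPT with 50 kb on each side, gained one. With peaks of q under 1e-05 the difference in list length was 779 peaks and 17.4 Mb, SKBR3-only regions numbered 7065, MDA-MB-453-only regions 6744, regions in all lists 11927 and MDA-MB-453-only promoters 1391. The κB shares were then 17.9% and 10.4% of SKBR3-only and MDA-MB-453-only regions, and the AP-1 shares 30.8% and 18.9%. Cutting lists to one size left a difference of 20.9 Mb, put SKBR3-only regions (11144) below MDA-MB-453-only regions (11749), and gave the former κB and AP-1 shares of 17.6% and 30.7%. Counting a region only where 50% of it was covered left 9690 in all lists. In 500 bp the κB shares were 9.95% and 4.39% and the AP-1 shares 18.7% and 11.9%.

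The interaction depended most on the settings. Against 11 genes it called 26 with 10 kb and 6 with 50 kb on each side, 178 with q under 1e-05, 58 with equal lists, 83 with 0.1 kb and 0 with 2 kb added, 94 without the filter and 51 with enrichment weighting. Among inflammatory genes it called 3 with 10 kb, 6 with q under 1e-05, 2 with equal lists, 2 with 0.1 kb added and 1 with enrichment weighting. The cause was not tested. Leaving out single lists gave 0 to 246 calls over all genes (246 without SKBR3 TWEAK replicate 1, 40 without SKBR3 TWEAK replicate 2, 0 without any other) and 0 to 11 among inflammatory genes. SKBR3-only regions then numbered 17486 to 27278, with κB shares of 16.2% to 16.8% and AP-1 shares of 27.7% to 30.1%.

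The replicate numbers were not taken to pair the samples: deviations of same-numbered lists correlated at 0.447 between treated and untreated SKBR3 and between −0.03 and −0.01 otherwise. With a replicate block the calls were 6553 (SKBR3) against 3566 (MDA-MB-453), of which 89 against 19 were inflammatory genes, and the interaction called 0.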

Other observations

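Other gene groups are given beside the 62.7% of all loci that were called, 40.5% higher in SKBR3 and 22.2% in MDA-MB-453. In either direction, 71.4% of AP-1 and small MAF genes and 64.3% of tested STAT and IRF genes were called. By direction, 64.3% and 50% were higher in SKBR3 and 7.14% and 14.3% in MDA-MB-453. The inflammatory genes had 61.5% and 12.6%. Of 14 AP-1 and small MAF genes, 9 were higher in SKBR3 and 1 in MDA-MB-453 (median 0.65), although enrichment weighting gave 5 and 5. ATF3, a stress-induced factor, was covered over 28.2 and 19.2 kb against 4.08 and 3.79 kb. Of 14 tested STAT and IRF genes, 7 and 2 were higher in SKBR3 and MDA-MB-453. STAT3 was covered over 54.9 and 51.3 kb in SKBR3 and 2.27 and 2.20 kb in MDA-MB-453. Genes of this and the next paragraph were named after their values were seen.

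Luminal and apocrine factors leaned the other way, with 9 of 23 tested genes higher in SKBR3 and 11 in MDA-MB-453 (median −0.15). Of 21 tested mesenchymal and basal genes, 15 were higher in SKBR3 and 2 in MDA-MB-453 (median 1.38), and ITGA6, an integrin, was listed at 0 in both treated SKBR3 lists and covered over 17.4 and 18.6 kb in MDA-MB-453. Of 13 tested ERBB receptor and ligand genes, 9 and 3 were higher in SKBR3 and MDA-MB-453. EGFR was covered over 25.4 and 39.8 kb against 0.538 and 0 kb, and ERBB4 over 0 and 1.53 kb against 28.5 and 27.8 kb.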
